A study of Homo sapiens with 3 samples.

Results

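The 510 cells described here are the D21 cardiomyocytes that stayed under a mitochondrial limit in human chambered cardiac organoids (CCOs). They were chosen from the D21 barcodes in which over 2000 but under 7500 genes were detected, with less than 10% of the unique molecular identifiers (UMIs, 1 per captured transcript) on mitochondrial (MT-) genes. A barcode was a member when TNNT2, MYH6, MYL7 and TTN together took at least 2% of its UMIs, AFP took less than 0.2%, and 6 cell division genes (MKI67, TOP2A, CENPF, TPX2, NUSAP1 and UBE2C) took fewer than 8 UMIs per 10000. The 510 members were 26.2% of the 1946 kept D21 cells (exact binomial 95% interval 24.3% to 28.2%), 5.57% of the 9149 D21 barcodes, and part of 17327 barcodes over 3 days.

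The CCOs were grown from H7, a human embryonic stem cell line, in cardiosphere growth medium and then in RPMI-1640 with B27, with no further treatment given in the labels. They were dissociated with TrypLE and profiled by droplet single-cell RNA sequencing at D8, D14 and D21, each as a single library. Since no day had a replicate, no test was made, no p-value is given, and differences between days cannot be told apart from differences between libraries or media. All intervals below are 95% intervals that cover counting error only.

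Cardiomyocytes contract through sarcomeres, in which thick filaments of myosin pull on thin filaments of actin that are anchored at the Z-disc. As human ventricular muscle develops, the beta heavy chain MYH7 comes to prevail over the alpha heavy chain MYH6, the regulatory light chain MYL2 comes to prevail over MYL7, and TNNI3 replaces the slow skeletal troponin I, TNNI1. MYL2 is widely used as a marker of ventricular identity, while NPPA, MYL7 and NR2F2 are prominent in atrial muscle.

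Several properties of the library bear on every value below. Each member had 5029 to 44022 UMIs (median 13236), against a median of 14474 in the other 1436 kept D21 cells. Those others comprised 1082 cells with a marker sum under 2% and AFP under 0.2%, 271 cells with a marker sum under 2% and high AFP, 45 with the marker sum of a member but high AFP, and 38 that failed through the cell division genes alone. The 271 AFP-high cells (median 22062 UMIs) should lack sarcomere transcripts, and they serve below as the background for shares of cells with a UMI. D21 shared 52 barcode sequences with D8 and 59 with D14, and 4 members carried such a barcode. A doublet caller marked 2 members, too few to count as working, so doublets were kept.

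The name of the cells was set against markers that the rule did not use. All 11 further cardiomyocyte markers, such as ACTC1, TNNC1, ACTN2 and RYR2, were higher in members, and their sum had a median of 464 UMIs per 10000 against 21.0 in the other kept D21 cells. The endothelial markers summed to 47.4 CPM (UMIs of the gene or genes per 1000000 UMIs) in members and 369 CPM in the other kept D21 cells. The highest member reached 9.58 UMIs per 10000. Of these markers CDH5 and ECSCR had 0 UMIs in members, where the floor of 3 UMIs corresponds to 0.404 CPM. The summed fibroblast markers stood at 440 CPM against 2879 CPM, and their median was 0.874 UMIs per 10000 in members (range 0 to 81.2). Smooth muscle markers did not separate the groups, at 737 CPM in members and 725 CPM in the other kept D21 cells. Their medians were 5.40 and 5.09 UMIs per 10000, and the highest member reached 185. The hepatic markers outside AFP had a median of 12.6 UMIs per 10000 in members (range 2.97 to 639) and 13.0 in the 1082 cells low in both marker sum and AFP. At D14 the same gate had 0.516. Their medians were close in both D21 groups, while their sums were 1918 CPM in members and 4787 CPM in the 1082 cells, where single cells reached 2307 UMIs per 10000.

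**Figure D1:**
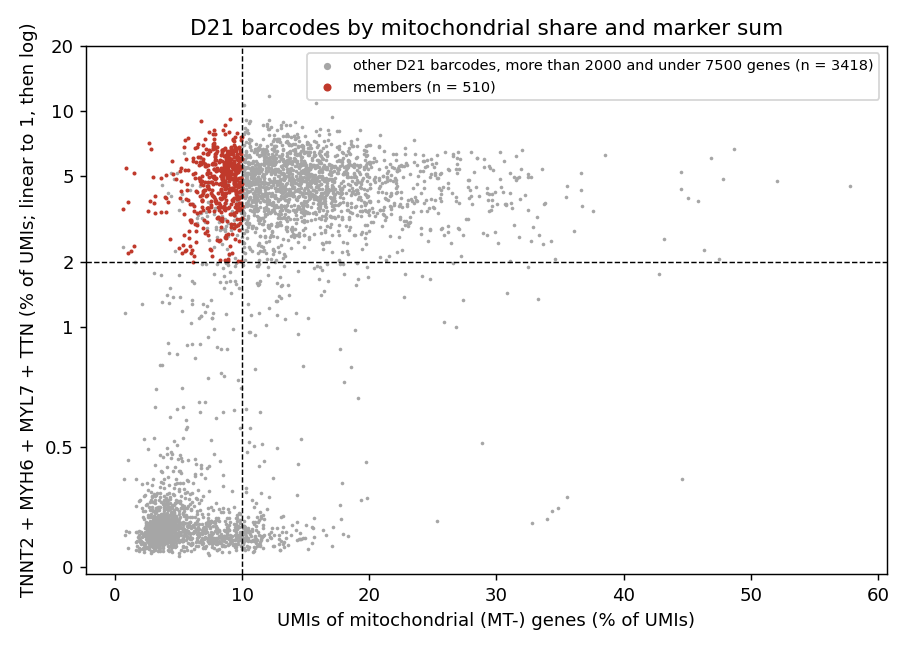
Each point is 1 of the 3928 D21 barcodes within those limits of detected genes, with the share of UMIs on mitochondrial genes (percent) on the x axis and the sum of TNNT2, MYH6, MYL7 and TTN (percent of UMIs, linear to 1 and then log) on the y axis. The 510 members, in red, lie above 2% and left of 10%, and the cloud of cardiomyocytes continues to the right of the limit.

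The mitochondrial limit cut through a continuous population. Of the 2136 D21 barcodes that passed the gate at any mitochondrial share, 510 were under the limit (23.9%, interval 22.1% to 25.7%) and 1626 were at or above it. Members crowded against the limit, with a median mitochondrial share of 8.46% (range 0.656% to 9.99%), and 310 of them (60.8%) lay between 8% and 10%. At D14 the same gate kept 424 of 548 barcodes (77.4%) under the limit. By the marker sum, which the rule itself used, 1264 kept cells were under 0.5%. There were 42 between 0.5% and 1%, 47 between 1% and 2%, and 81 between 2% and 3%. Few cells thus lay near the limit of 2%, but it had no gap. Members had a median of 4.83% (range 2.005% to 9.20%). The values nearest to each threshold were 1.97% and 2.005% for the marker sum, 0.186% and 0.209% for AFP, 7.88 and 8.33 per 10000 for the cell division genes, and 9.99% and 10.00% for the mitochondrial share. Of the members, 348 had 0 UMIs of the 6 cell division genes.

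The members were first compared with the other kept D21 cells from summed UMIs, as a description of the cells that the rule separated. Genes of the sarcomere, of muscle energy transfer, of the small heat shock proteins and of calcium handling were mostly higher in members, and plasma protein genes of the hepatic type stood lowest. Among 8921 genes at 10 CPM or more in either group, 6.64% were 2-fold or more higher in members and 9.63% were 2-fold or more lower, with 10 CPM added to both sides. The median log2 ratio over all of them was 0.05. The rule itself drew on this contrast, and the other cells include 83 barcodes with the marker sum of a cardiomyocyte, so the counts by list describe the gate and support nothing further.

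All 8 thick filament genes tested outside the rule were at least 2-fold higher in members, with a median log2 ratio of 3.25. MYL3, the ventricular and slow muscle essential light chain, was at 9806 CPM (9735 to 9878) against 669 CPM in the other cells, and MYL4, the atrial and fetal essential light chain, was at 8538 CPM against 721 CPM. MYL2 was at 572 CPM (555 to 589) against 35.7 CPM, and MYH7 at 622 CPM (605 to 641) against 50.7 CPM. MYBPC3, the cardiac myosin binding protein, was at 483 CPM against 52.3 CPM. MYOM2, an M-band protein of adult muscle, was low in both groups, at 9.43 and 4.30 CPM. How reads shared by the near-identical MYH6 and MYH7, or by ACTC1, ACTA1 and ACTA2, were assigned is not known from the sources used here, which leaves their split uncertain.

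Thin filament genes followed the same pattern, with 9 of 10 higher in members and a median log2 ratio of 2.61. Cardiac actin ACTC1 was at 14395 CPM against 1066 CPM, troponin C (TNNC1) at 8002 against 655 CPM, and tropomyosin TPM1 at 18102 against 2311 CPM. The slow skeletal troponin I, TNNI1, was at 7894 CPM (7830 to 7958) against 733 CPM. TNNI3, the troponin I of the mature heart, was the exception, at 17.9 CPM (15.0 to 21.2) against 4.69 CPM. At the Z-disc and costamere 14 of 15 genes were higher, with a median of 3.07, among them LDB3 at 734 against 51.7 CPM, ACTN2 at 795 against 68.4 CPM, TCAP at 375 against 23.3 CPM and SMPX at 1926 against 177 CPM. LDB3, a Z-disc scaffold, was seen in 92.7% of members after each cell was thinned to 4000 UMIs, and in 8.86% of background cells. The intermediate filament gene DES did not follow, at 18.9 CPM in members and 18.3 CPM in the other cells.

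**Figure D2:**
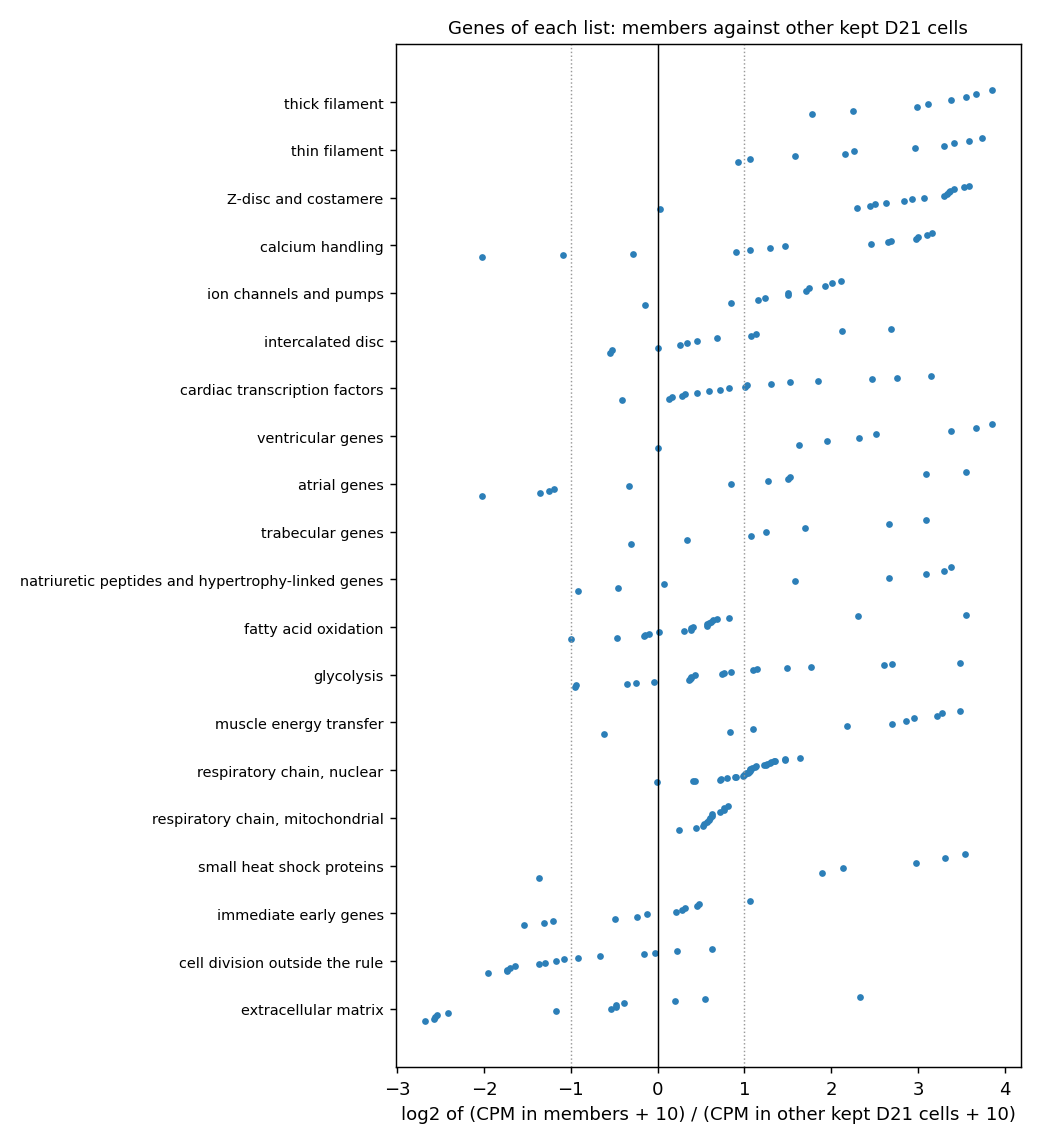
Each point is 1 gene of a list, and the x axis is the log2 ratio of its CPM in members to that in the other kept D21 cells, with 10 CPM added to both and dotted lines at 2-fold. Sarcomere, calcium handling and muscle energy lists lie mostly right of the line, while cell division and matrix genes lie mostly left of it.

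Calcium handling genes were higher in 10 of 14 and lower in 2, with a median log2 ratio of 1.96. The release channel RYR2 was at 183 CPM against 14.2 CPM, the reuptake pump ATP2A2 at 803 against 116 CPM, its inhibitor phospholamban (PLN) at 2846 against 351 CPM, and the exchanger SLC8A1 at 409 against 36.8 CPM. Sarcolipin (SLN), an atrial inhibitor of the same pump, was lower in members, at 2.02 against 38.9 CPM, and its 15 UMIs came from 2 members. Ion channels and pumps were higher in 9 of 11, including the L-type calcium channel CACNA1C (59.96 against 7.41 CPM), the pacemaker channel HCN4 (38.4 against 4.47 CPM) and the repolarizing channel KCNH2 (95.3 against 22.2 CPM). Some channels and sarcoplasmic proteins of the adult heart were hardly seen. The inward rectifier KCNJ2 and the calcium buffer CASQ2 had 1 UMI each, and the potassium channel KCNA5 had 0.

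Intercalated disc genes were mixed, with 4 of 11 higher, led by the desmosomal PKP2 (207 against 23.6 CPM) and the alpha-catenin CTNNA3. The gap junction gene GJA1 was at 44.6 CPM in both groups. Among cardiac transcription factors 8 of 17 were higher, with a median log2 ratio of 0.82. SMYD1 (303 against 25.2 CPM), MYOCD (162 against 15.4 CPM) and NKX2-5 (359 against 56.6 CPM) had the widest gaps, whereas GATA4 was at 90.4 CPM in members and 79.9 CPM in the other cells.

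Ventricular genes were higher almost throughout, and atrial genes went both ways. Of 8 ventricular genes 7 were higher, including the transcription factors IRX4 (91.5 against 7.71 CPM) and HEY2 (84.5 against 14.5 CPM). Atrial genes were higher in 5 of 11 tested outside the rule and lower in 4. The higher ones included NPPA, at 336 CPM against 30.5 CPM, and MYL4, while the lower ones were SLN, NR2F1 (1.89 against 18.4 CPM), NR2F2 (14.0 against 51.5 CPM) and HEY1 (8.35 against 31.9 CPM). The last 3 encode transcription factors linked to atrial identity, and all 3 were at higher levels in the other kept D21 cells.

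Genes of muscle energy transfer were higher in 8 of 10, with a median log2 ratio of 2.78. The muscle creatine kinase CKM was at 328 against 26.2 CPM, myoglobin (MB) at 576 against 50.3 CPM, and the adenine nucleotide carrier SLC25A4 at 1082 against 140 CPM. Nuclear respiratory chain genes were higher in 21 of 31, and the 13 mitochondrially encoded ones, whose sum the rule limits, all stayed within 2-fold, at a median log2 ratio of 0.61. Fatty acid oxidation genes were less uniform, since only FABP3, the cardiac fatty acid binding protein (1142 against 88.2 CPM), and the transporter SLC27A6 passed 2-fold of 19. CPT1B, the muscle enzyme that admits fatty acids to mitochondria, was at 1.21 CPM in members, and the fatty acid receptor CD36 at 2.69 CPM. Glycolysis genes were higher in 7 of 20, led by the muscle forms PGAM2 (437 against 29.99 CPM) and ENO3 (429 against 57.8 CPM).

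Small heat shock proteins were higher in 5 of 6, among them HSPB3 (477 against 31.7 CPM) and HSPB7 (1070 against 99.1 CPM), and HSPB6 was lower (21.8 against 72.0 CPM). Of 12 immediate early genes, which respond to dissociation among other stimuli, 1 was higher and 3 were lower, with JUNB at 90.7 against 284 CPM. Of 15 cell division genes outside the rule 9 were lower, such as CDK1 at 3.10 against 40.9 CPM. Among 13 matrix genes 6 were lower and only LAMA2, the laminin chain of the muscle basement membrane, was higher (70.6 against 6.05 CPM). The genes furthest below the other cells were SERPINA1, FGG, ALB and AHSG, all secreted plasma proteins, with log2 ratios of −4.74 to −4.68.

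The members differed widely among themselves in MYL2. It had 0 UMIs in 173 members (33.9%), and its level ran from 0 through a median of 0.989 to 96.6 UMIs per 10000. At least 3 UMIs were found in 195 members (38.2%, interval 34.0% to 42.6%), which are called MYL2-positive below. The same count was reached by 1.48% of background cells (0.404% to 3.74%), by 0.370% of the 1082 cells low in both markers, and by 0.472% of gated D14 cells. Of the 45 AFP-high barcodes with the marker sum of a member, 16 reached it (35.6%, 21.9% to 51.2%). So did 16 of the 38 cells that failed through the cell division genes alone (42.1%, 26.3% to 59.2%). A share of this size was thus not particular to the members among D21 cardiomyocytes. After thinning to 4000 UMIs, 44.1% of members and 4.43% of background cells had any MYL2, against 66.1% and 27.7% unthinned. The 30 members richest in MYL2 held 50% of all its UMIs in the group.

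The MYL2 threshold was taken on raw counts, so depth was set beside it. MYL2-positive members had a median of 13943 UMIs and MYL2-negative members 12928, and their median mitochondrial shares were 8.55% and 8.40%. The MYL2-positive share was 38.5% below 5% mitochondrial UMIs (26 members, interval 20.2% to 59.4%), 32.2% between 5% and 8%, and 41.6% between 8% and 10%. No steady order with the mitochondrial share appeared within the members at this number of cells.

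The 195 MYL2-positive and 315 MYL2-negative members were next compared with each other. Few genes separated them. Of 8146 genes at 10 CPM or more, 0.626% were 1.5-fold or more higher in MYL2-positive members and 0.822% lower, with a median log2 ratio of −0.03 over all genes. The split used MYL2 alone, but both groups come from the same cells of 1 library, so the differences are given as descriptions.

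MYH7 had the highest log2 ratio after MYL2 itself. It ran from 0 through a median of 5.98 to 103 UMIs per 10000 in MYL2-positive members, and from 0 through 0.665 to 65.1 in MYL2-negative members. The groups overlapped over most of that range. Summed, MYH7 was at 1132 CPM (1094 to 1171) against 285 CPM (270 to 301), a log2 ratio of 1.95, and of 1.53 when the classes were formed after thinning. After thinning 71.8% of MYL2-positive and 36.5% of MYL2-negative members had a MYH7 UMI, against 7.01% of background cells.

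In the Z-disc list 5 of 15 genes were past 1.5-fold on the higher side (TCAP, CSRP3, ANKRD1, SORBS2 and SYNPO2L), none lower, and a median log2 ratio of 0.18. TCAP, which caps titin at the Z-disc, was at 587 CPM (560 to 616) against 234 CPM (220 to 249), with medians of 4.06 and 1.16 UMIs per 10000. CSRP3, the muscle LIM protein, was at 680 CPM (651 to 711) against 324 CPM (307 to 341), with medians of 4.45 and 1.83 per 10000. ANKRD1, a titin-bound ankyrin repeat protein that responds to stretch, was at 662 against 325 CPM. In all 3 cases the 2 groups overlapped from 0 upwards.

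Alongside them stood the small heat shock protein CRYAB, a chaperone of desmin and titin, at 511 CPM (486 to 538) against 230 CPM (217 to 245). The thin filament gene LMOD2, which lengthens actin filaments, was at 80.2 against 41.0 CPM, and CKM at 418 against 269 CPM. Outside the lists, PHLDB2 (120 against 59.1 CPM), the receptor TNFRSF12A (198 against 102 CPM) and ODAM (71.7 against 32.0 CPM) were higher as well. MYL3 was higher by less than the fold used, at 11511 against 8678 CPM.

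Much of the cardiomyocyte program did not differ by that fold. MYL7 was at 23995 CPM in MYL2-positive and 23295 CPM in MYL2-negative members, MYH6 at 8463 and 9262 CPM, and TNNI1 at 7894 CPM in both. MYL7 and MYH6 are genes of the rule that both groups passed, so their closeness was partly built in. None of 13 calcium handling genes, 11 intercalated disc genes or 16 cardiac transcription factors passed 1.5-fold either way. Nor did any of 20 fatty acid oxidation genes, 20 glycolysis genes or 31 nuclear respiratory chain genes. Over all 8146 genes only 0.626% were higher and 0.822% lower, so counts of 0 in lists of this size are near that share. They do not set these lists apart from other genes. The ventricular factors IRX4 (103 against 84.0 CPM, log2 ratio 0.26) and HEY2 (103 against 72.3 CPM, log2 ratio 0.46) stayed below 1.5-fold too. Of 7 ventricular genes other than MYL2, 1 was higher (MYH7) and 1 lower (LBH). After thinning, IRX4 was seen in 30.3% of MYL2-positive and 30.2% of MYL2-negative members, against 1.11% of background cells.

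**Figure D3:**
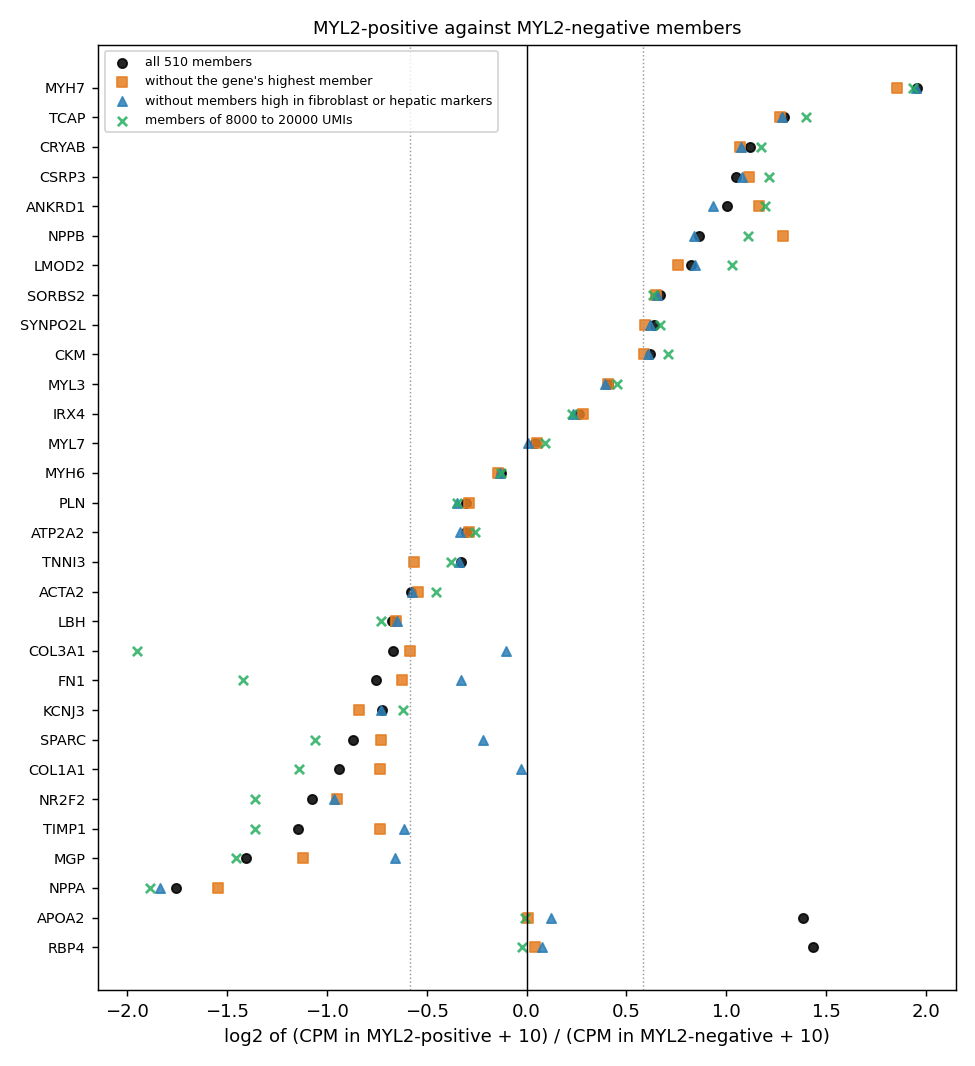
For 30 named genes, the x axis gives the log2 ratio of CPM in MYL2-positive to MYL2-negative members with 10 CPM added, with dotted lines at 1.5-fold. Black circles use all 510 members, and the other symbols leave out each gene's highest member, leave out members high in fibroblast or hepatic markers, or keep members of 8000 to 20000 UMIs. MYH7, TCAP, CRYAB and CSRP3 hold their place, while APOA2, RBP4 and the collagens move towards 0 in at least 1 of these.

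The same genes were followed over 4 bins of MYL2 level. The bins held members with 0 MYL2 UMIs per 10000 (173), above 0 to under 3 (186), 3 to under 10 (74), and 10 or more (77), with median depths of 12130, 14248.5, 12974 and 13827 UMIs. MYH7 was at 223, 421, 817 and 1751 CPM in that order, and TCAP at 181, 326, 508 and 771 CPM. CSRP3 was at 268, 443, 555 and 844 CPM, and LMOD2 at 31.9, 51.2, 78.4 and 101 CPM. Each of the 4 was higher in every bin than in the bin before. All 4 were already higher in MYL2-positive members, and the bins use the same cells. Their order restates the split in finer steps and is no separate support for it. CRYAB was at 245 and 255 CPM in the first 2 bins and at 427 and 677 CPM in the last 2. MYL7, a gene of the rule, showed no such order, at 22304, 25008, 22284 and 23827 CPM.

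The opposite order was seen for LBH, a transcriptional cofactor of the developing heart, at 519, 449, 317 and 234 CPM, and for PLN, at 3232, 2870, 2520 and 2289 CPM. Smooth muscle actin ACTA2, which is also made by early cardiomyocytes, was at 1349 and 1389 CPM in the lower bins and at 744 and 739 CPM in the upper ones. MYH6 was at 9035, 9720, 7979 and 7732 CPM. NPPB had no order, at 101, 46.6, 211 and 147 CPM.

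**Figure D4:**
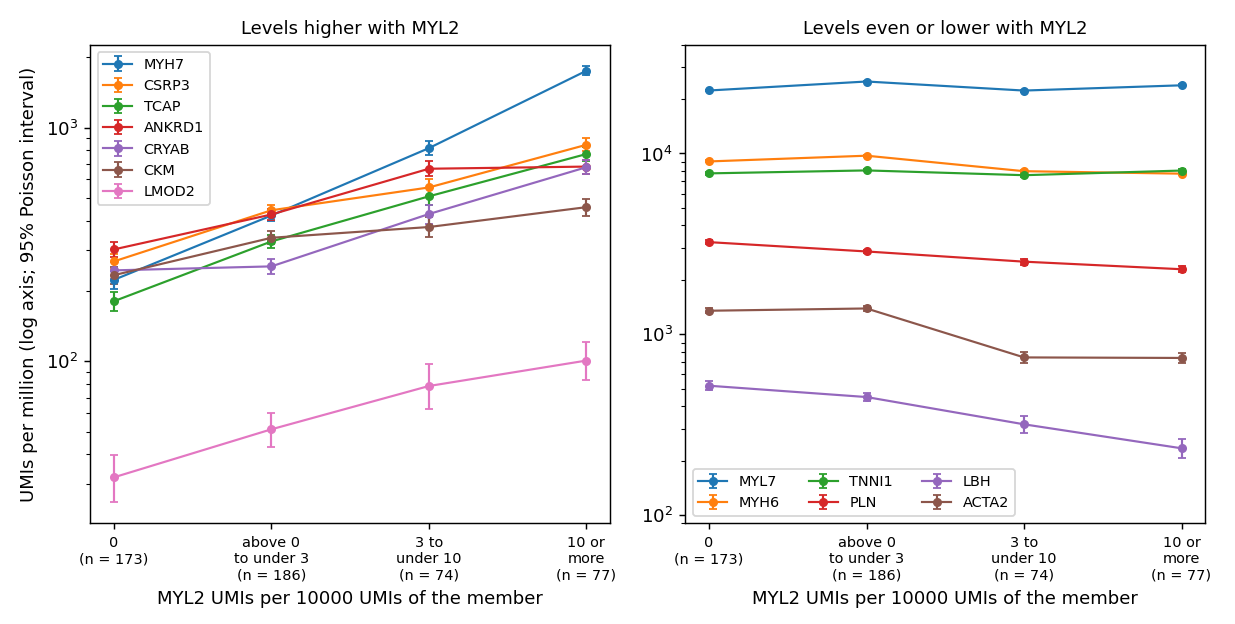
The x axis gives 4 bins of MYL2 UMIs per 10000 UMIs of the member, and the y axis gives summed UMIs per 1000000 on a log scale with 95% Poisson intervals. MYH7, TCAP, CSRP3, CKM and LMOD2 stand higher in each bin than in the one before, MYL7 and TNNI1 stay nearly level, and LBH and PLN stand lower in each bin.

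Promoter sequence is shown for ANKRD1, CKM and LMOD2, which were higher in MYL2-positive members, and for NPPA and LBH, which were lower. Over the bins ANKRD1 was at 301, 425, 667 (618 to 719) and 681 CPM (635 to 730), with no difference beyond counting error between the last 2, and CKM was at 234, 338, 376 and 457 CPM. Of 10 genes looked up 5 were found in the RefSeq promoter table (GRCh38.p14), and the others were MYL2, MYH7, TCAP, CSRP3 and CRYAB. Each run holds the 250 bases before the transcription start, 5′ to 3′ on the strand of the gene. The regions are ANKRD1 at chr10:90921088-90921337 (minus strand), CKM at chr19:45322876-45323125 (minus strand), LMOD2 at chr7:123655616-123655865 (plus strand), NPPA at chr1:11847784-11848033 (minus strand) and LBH at chr2:30231284-30231533 (plus strand). Capitals mark forms of the TATA box (TATAAA and the longer TATATAA), of the binding motif of GATA factors (AGATAA) and of that of TEAD factors (CATTCC), on either strand.
ANKRD1: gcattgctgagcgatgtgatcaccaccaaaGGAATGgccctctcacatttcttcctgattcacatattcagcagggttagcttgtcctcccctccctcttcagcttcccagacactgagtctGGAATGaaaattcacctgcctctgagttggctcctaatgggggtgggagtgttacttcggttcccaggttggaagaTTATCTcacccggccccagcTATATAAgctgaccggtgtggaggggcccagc
CKM: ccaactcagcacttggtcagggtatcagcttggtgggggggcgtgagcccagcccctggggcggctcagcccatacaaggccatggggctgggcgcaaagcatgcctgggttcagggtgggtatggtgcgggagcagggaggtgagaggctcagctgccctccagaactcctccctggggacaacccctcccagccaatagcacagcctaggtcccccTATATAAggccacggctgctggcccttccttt
LMOD2: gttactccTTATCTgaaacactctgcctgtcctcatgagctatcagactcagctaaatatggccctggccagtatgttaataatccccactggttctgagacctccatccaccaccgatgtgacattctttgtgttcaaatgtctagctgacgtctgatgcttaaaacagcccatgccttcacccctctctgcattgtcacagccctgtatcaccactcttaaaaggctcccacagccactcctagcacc
NPPA: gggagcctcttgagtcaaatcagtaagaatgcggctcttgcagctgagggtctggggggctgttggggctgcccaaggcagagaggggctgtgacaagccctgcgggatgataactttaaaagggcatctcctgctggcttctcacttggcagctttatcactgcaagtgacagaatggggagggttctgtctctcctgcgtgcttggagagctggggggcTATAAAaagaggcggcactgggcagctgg
LBH: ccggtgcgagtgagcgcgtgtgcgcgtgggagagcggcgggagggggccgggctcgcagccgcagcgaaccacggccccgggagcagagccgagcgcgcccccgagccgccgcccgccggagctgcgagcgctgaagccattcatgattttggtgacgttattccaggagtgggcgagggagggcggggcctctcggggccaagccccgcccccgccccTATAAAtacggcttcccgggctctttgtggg
ANKRD1 and CKM both held TATATAA at 32 to 26 bases before the start, a run found in 2.42% of 35116 promoters of the same length. TATAAA stood at 29 to 24 bases before the start of NPPA and at 31 to 26 before that of LBH, and 10.7% of all promoters held it. ANKRD1 held CATTCC on the opposite strand at 2 places, from bases 220 and 128 (11.9% of all promoters held at least 1), and AGATAA on the opposite strand from base 52. LMOD2 held AGATAA on the opposite strand from base 242, as 9.17% of all promoters did on either strand. The E-box form CANNTG, not in capitals, was found in ANKRD1, CKM, LMOD2 and NPPA but not in LBH, and in 61.8% of all promoters. No MEF2 or CArG box match lay in these 5 windows, where 2.8% and 1.16% of all promoters had one. These matches describe letters only. For GATA and TEAD factors only the exact forms given were searched, so a run may hold other forms in lower case.

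On the lower side of the MYL2 split were 3 of 8 atrial genes, with none higher (median log2 ratio −0.34). NPPA, which encodes atrial natriuretic peptide, was at 132 CPM (120 to 146) in MYL2-positive and 470 CPM (450 to 491) in MYL2-negative members, a log2 ratio of −1.75. Its UMIs sat in few cells. It was detected in 195 members, 6 of them held 50% of its 2490 UMIs, and 1 of the 10 members richest in it was MYL2-positive. After thinning, 16.9% of MYL2-positive and 21.3% of MYL2-negative members had any NPPA, against 5.17% of background cells, a narrower gap than that of the summed levels. The highest level was 66.2 UMIs per 10000 among MYL2-positive members and 232 among MYL2-negative ones.

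Also on the lower side, NR2F2, KCNJ3 and CACNA1D had few counts. NR2F2, a transcription factor of atrial identity, had 13 UMIs in MYL2-positive and 91 in MYL2-negative members (4.40 against 20.4 CPM), and at least 3 UMIs in 0 and 11 members respectively. After thinning it was seen in 2.05% and 6.98% of the groups, and in 8.86% of the AFP-high cells. The acetylcholine-gated potassium channel KCNJ3 was at 6.77 against 17.7 CPM and the calcium channel CACNA1D at 4.06 against 13.9 CPM. Thinned, KCNJ3 was seen in 2.56% and 7.30% of the groups and in 1.11% of background cells. LBH, counted above among the ventricular genes, was at 306 CPM (286 to 327) against 494 CPM (474 to 515), and was detected in 463 members.

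Matrix genes were also lower in MYL2-positive members, with 6 of 13 past 1.5-fold, and 4 of 6 fibroblast markers. The values were also taken without members that carried many fibroblast transcripts. COL1A1 was at 86.3 against 174 CPM (log2 ratio −0.94), COL1A2 at 30.1 against 80.8 CPM (−1.18) and MGP at 44.0 against 133 CPM (−1.41). Of 23 members with 20 or more fibroblast marker UMIs per 10000, 4 were MYL2-positive and 19 were MYL2-negative. Without them and without 8 members of 100 or more hepatic marker UMIs per 10000, the log2 ratios were −0.03, −0.33 and −0.66. COL1A1 is itself among the fibroblast markers, so leaving out members high in them built in part of its change. What part these members had in the other values was not tested. TIMP1 (199 against 452 CPM) had a single member with 19.8% of its UMIs, and its log2 ratio of −1.14 was −0.74 without that member.

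A few genes were separated by 1 barcode. The apolipoprotein APOA2 was at 1006 against 379 CPM (log2 ratio 1.38), and RBP4 at 92.7 against 28.0 CPM (1.44), but 1 member held 39.9% of the APOA2 UMIs and 1 held 47.4% of the RBP4 UMIs. Without the highest member of each, the log2 ratios were 0.01 and 0.04. MYLK had 56.7% of its UMIs in 1 member. By contrast, leaving out the highest member left MYH7 at 1.85, TCAP at 1.27, CRYAB at 1.07 and CSRP3 at 1.11. NPPB, another natriuretic peptide, was at 145 against 75.01 CPM, but only 63 members had a UMI, 5 of them held 50% of its UMIs, and its log2 ratio of 0.86 was −0.15 with classes formed after thinning.

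Rank correlation with MYL2 was taken over the 510 members thinned to 4000 UMIs, as a description of cells that share 1 library and its depth. Among 2612 genes at 50 CPM or more the median Spearman rho was −0.01. The highest values were MYH7 (0.35), TCAP (0.33), MYL3 (0.28), CSRP3 (0.27), TNNC1 (0.25), HSPB7 (0.25), TPM1 (0.24), CKM (0.24), TTN (0.23) and TNFRSF12A (0.22). The lowest included CTD-2545M3.8 (−0.23), TTC3 (−0.18), CSRP2 (−0.17), a LIM protein of smooth and immature muscle, and PLN (−0.16). All of these correlations are weak.

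Variation among members was measured by the ratio of variance to mean after thinning, whose median was 1.07 over the same 2612 genes. At the same relative spread this ratio is larger for a gene with more UMIs, so its order mixes level with spread. The nuclear RNA MALAT1 had the largest ratio (42.5), with a median of 254 UMIs per 10000. NPPA followed (40.6), then ACTA1 (36.1), APOA2 (33.0), TIMP1 (22.9), MYL7 (21.5), TMSB4X (18.4), ACTC1 (15.8), NPPB (14.7), ANKRD1 (13.9), FTL (11.9) and MYL2 (10.3). The skeletal actin ACTA1 was concentrated still more than NPPA, since 29 members had a UMI and 1 member held 200 of its 445 UMIs (44.9%). ANKRD1 was detected in 265 members, and 20 members held 50% of its UMIs. MYH6, like MYL7, is a gene of the rule, so its presence across members was partly set by the gate. MYH6 had UMIs in all 510 members, with a range of 11.2 to 194 per 10000 around a median of 90.6. Of these members, 165 held 50% of its UMIs. Its ratio of variance to mean was 5.62.

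Paired isoforms were also set side by side in the members. MYH6 and MYL7 are genes of the rule, so the gate itself bears on the MYH7 and MYL2 shares. MYH7 made up 6.51% of MYH6 and MYH7 UMIs (6.33% to 6.69%), with 11.8% in MYL2-positive and 2.99% in MYL2-negative members. More MYH7 than MYH6 UMIs were found in 10 members, 8 of them MYL2-positive. MYL2 made up 2.37% of MYL2 and MYL7 UMIs (2.30% to 2.44%). No member had more MYL2 than MYL7 or more TNNI3 than TNNI1 UMIs (0 of 510, which allows a share of up to 0.588% by the floor of 3 counts and 0.721% by the exact interval). Of the members, 77 (15.1%) had 0 UMIs of both MYL2 and MYH7. CKM made up 84.7% of CKM and CKB UMIs, with 89.2% (87.5% to 90.8%) in MYL2-positive and 80.5% (78.4% to 82.5%) in MYL2-negative members.

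The members were also set beside the 1626 D21 barcodes that passed the same gate at 10% or more mitochondrial UMIs, per 1000000 UMIs outside mitochondrial genes. Here 0.472% of 8470 genes were 1.5-fold or more higher in members and 0.378% lower, with a median log2 ratio of −0.05. The thick filament gene MYBPC3 (525 against 829) was lower in members. TNNI3 (19.5 against 55.2), ATP2A2 (874 against 1394) and the muscle cytochrome c oxidase subunit COX6A2 (317 against 535) were lower in members too. On the higher side were ACTA2 (1287 against 746), TAGLN (251 against 130), TIMP1 (382 against 189), COL1A1 (152 against 88.0) and COL3A1 (227 against 139). The fibroblast markers summed to 440 CPM in members and to 254 CPM at 10% or more, and their part in the result was not tested. These 2 sums are per 1000000 of all UMIs, mitochondrial ones included, unlike the other values here.

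MYH6 was lower and MYL2 higher in members than on the other side of the mitochondrial limit. MYH6 was at 9727 per 1000000 in members and 13132 at 10% or more, and over 8 bins of mitochondrial share it was at 6261 in the lowest and 20501 in the highest. MYL2 was at 622 in members against 421 at 10% or more. Over the 8 bins, from the lowest up, MYL2 had no steady order, at 622, 536, 675, 397, 538, 354, 349 and 250. The MYL2-positive share, taken on raw counts, was 38.2% in members against 27.2% (25.1% to 29.5%). That share was 29.9% at 10% to 12%, 30.4% at 12% to 15%, 26% at 15% to 20%, 22.1% at 20% to 30% and 15.8% at 30% or more. Median depth was lower in the same order, from 13054 UMIs at 10% to 12% to 9946 at 30% or more, and its part in the result was not tested. MYH7 was at 677 and 690 per 1000000 on the 2 sides of the limit, but at 371 in the lowest and 1188 in the highest of the 8 bins. MYL7 (25638 and 26319) and TNNI1 (8585 and 8224) were close on both sides.

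The gate was last applied to the earlier days, where it kept 424 of 3585 D14 cells and 44 of 2657 D8 cells. The median depth of the D14 cells was 13141 UMIs. Against D14, 2.27% of 8900 genes were 2-fold or more higher in members and 5.76% lower, with a median log2 ratio of −0.09. Of 8 ventricular genes 6 were higher, with a median log2 ratio of 1.95. MYL2 was at 572 CPM in members and 7.12 CPM (5.15 to 9.59) at D14, MYH7 at 622 and 42.1 CPM, IRX4 at 91.5 and 5.13 CPM, and HEY2 at 84.5 and 7.29 CPM. Thin filament and Z-disc genes split, with TNNC1 (8002 against 1664 CPM), TCAP (375 against 79.3 CPM) and the Z-disc protein MYOZ2 (407 against 56.3 CPM) higher, and TNNI3 (17.9 against 143 CPM), DES (18.9 against 102 CPM) and CSRP3 (466 against 1017 CPM) lower. Thus CSRP3 was lower in members than at D14 while it ordered with MYL2 within the members.

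Glycolysis genes were lower in 14 of 21 and higher in 1, with a median log2 ratio of −1.36. ENO1 was at 361 against 4461 CPM, LDHA at 387 against 2412 CPM, PGK1 at 322 against 1607 CPM, and the glucose transporter SLC2A3 at 62.1 against 867 CPM. The muscle form PGAM2 was the higher one, at 437 against 106 CPM. Fatty acid oxidation genes passed 2-fold in 2 of 19, and none of 31 nuclear respiratory chain genes did. SLN was at 2.02 against 224 CPM, the progenitor factor MEF2C at 66.4 against 444 CPM, and IRX3 at 38.4 against 284 CPM. All 8 hepatic markers tested were higher in members than at D14, with sums of 1918 and 78.1 CPM.

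**Figure D5:**
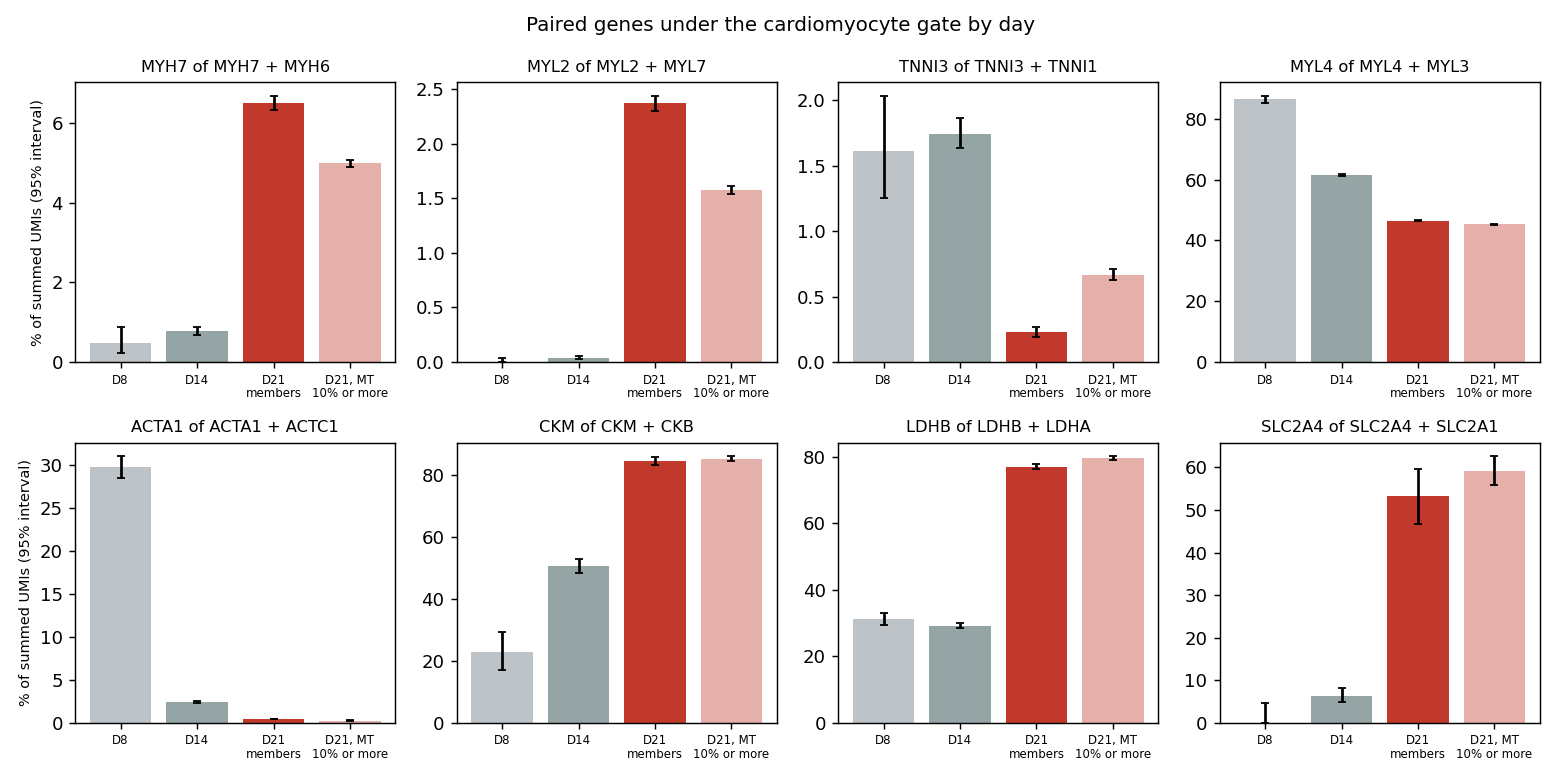
Each panel gives the share (percent of the summed UMIs of 2 genes, from 0) of the first gene, with exact binomial 95% intervals, for cells under the same gate at D8 (44), D14 (424), D21 members (510) and D21 at 10% or more mitochondrial UMIs (1626). MYH7, MYL2, CKM, LDHB and SLC2A4 have larger shares on both D21 bars than at D14, and TNNI3, MYL4 and ACTA1 have smaller ones. MYH6 and MYL7, the partners of MYH7 and MYL2, are genes of the gate.

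Shares within isoform pairs were also set side by side over the 3 days. The gate used MYH6 and MYL7 on each day, so it bears on the MYH7 and MYL2 shares. The MYH7 share was 0.477% at D8 (0.229% to 0.876%), 0.768% at D14 (0.677% to 0.868%) and 6.51% in members. The MYL2 share was 0 of 9314 UMIs at D8, which allows up to 0.0322% by the floor of 3 counts and 0.0396% by the exact interval, 0.0369% at D14 and 2.37% in members. The TNNI3 share was 1.61% at D8 (1.25% to 2.04%) and 1.75% at D14 (1.63% to 1.87%), with overlapping intervals, and lower in members at 0.227% (0.190% to 0.268%). It was 0.667% at D21 with 10% or more mitochondrial UMIs. The MYL4 share of MYL3 and MYL4 was 86.5%, 61.5% and 46.5%. LDHB, the lactate dehydrogenase form typical of heart, took 31.1%, 29.2% and 76.9% of LDHA and LDHB, and the insulin-responsive glucose transporter SLC2A4 took 0 of 80 UMIs, 6.37% and 53.3% of SLC2A1 and SLC2A4. Each D21 value comes from 1 library of 1 day.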

How the data were processed

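The authors deposited 1 table of raw UMI counts (32738 genes by barcode, D8, D14 and D21 merged) from libraries of the Chromium Single Cell 3′ kit, version 2, and the submitters' processing notes name Cell Ranger, Seurat 3.2.1 and hg19. The day of each barcode was taken from the ending of its column name. The members and gene lists were chosen with earlier results of these data known.

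Counts were summed per group and given as UMIs per 1000000 (CPM) with exact Poisson 95% intervals, and shares with exact Clopper-Pearson 95% intervals. Log2 ratios had 10 CPM added to both sides and were taken over genes at 10 CPM or more in either group. The threshold was 2-fold, or 1.5-fold for the MYL2 split and for the comparison across the mitochondrial limit. Cells were thinned to 4000 UMIs with a fixed seed, and all cells compared had at least that many. Scrublet, run in scanpy 1.11.5, called 7 of 1946 kept cells (0.360%) and was judged not to have worked, so doublets were kept. Each result was computed again with other limits, scalings and subsets, and the scripts were tested on simulated data.

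The genes named are those of the lists, the 10 with the largest log2 ratio each way at 50 CPM or more (against other kept cells, and within the MYL2 split), the 15 with the largest variance to mean, and the 10 each way with the largest Spearman correlation with MYL2. Python 3.11.15, numpy 2.4.6, pandas 2.3.3, scipy 1.17.1, matplotlib 3.10.9, and for TMM factors edgeR 4.0.16 in R 4.3.3 were used.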

Additional observations from a re-analysis of the deposited data

How the results depend on the processing

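With 1 library per day no value has a replicate, and depth limits genes of few counts most. No paired analysis was possible because the labels give no replicate numbers and each day is 1 library. Of the 9 main results under their alternatives, 81 values stayed within 1.5-fold of the main count or inside its interval and 38 moved, and for named genes 471 stayed, 193 moved and 8 turned from past the fold to the other sign. A mitochondrial limit of 5%, which keeps 26 of the members, gave a member share of 2.91%, a MYH7 share of 5.59%, a TNNI3 share of 0.278%, a MYL2 share of 3.38% of MYL2 and MYL7, 1074 genes above the other cells, and 2189 genes above and 2080 below in the MYL2 split. It also turned the log2 ratio of NPPA to 1.56, of APOA2 to −0.25, of RBP4 to −0.11 and of TIMP1 to 0.034, and, for genes under the fold, of HEY2 to −0.37, ATP2A2 to 0.60, MYH6 to 0.18 and MYL7 to −0.29. MYL7, at 0.04 over all members, changed sign in 3 further settings, to between −0.041 and −0.016. A limit of 20% gave a member share of 51.2%, a MYL2-positive share of 31.3%, a MYH7 share of 5.41%, a TNNI3 share of 0.485%, a MYL2 share of 1.83%, and 32 genes above and 29 below in the split. A marker sum of 4% gave a member share of 18.1%, a MYL2 share of 2.09% and −0.069 for RBP4, a marker sum of 1% gave 115 genes below in the split, and no AFP limit gave a member share of 28.4%. The MYL2-positive share was 66.1% at 1 UMI or more, 27.3% at 5 or more, 44.1% at 1 or more after thinning and 29.6% at 3 or more per 10000. Against the other cells, where 592 genes were above and 859 below, adding 1 CPM gave 1002 and 1356, the mean of log values per cell gave 119 and 69, and genes at 50 CPM or more gave 418 below. In the split, where 51 genes were above and 67 below, adding 1 CPM gave 154 and 249, the mean of log values gave 8 and 0, genes at 50 CPM or more gave 30 and 22, members of 3 or more against 0 UMIs gave 79 and 123, and members of 8000 to 20000 UMIs gave 128 below, with −0.0090 for APOA2 and −0.025 for RBP4. Classes formed after thinning turned NPPB to −0.15. Subsets chosen after seeing the data were members of 8% to 10% mitochondrial UMIs (77 above and 123 below), members without high fibroblast or hepatic markers (50 and 47), sums without each gene's highest member (37 and 47), and members without the 4 shared barcodes (MYL2-positive share 38.1%). Over 21 settings the log2 ratio in the split ran from 1.53 to 2.36 for MYH7, from 1.01 to 1.65 for TCAP, from 0.85 to 1.31 for CSRP3, from 0.63 to 1.21 for CRYAB and from −0.79 to −0.09 for LBH. Scaling without the rule and mitochondrial genes moved all log2 ratios against the other cells by 0.11, and TMM by −0.05. The cause of these moves was not tested.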
